A study of Mus musculus with 6 samples.

Results

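The genes described here are a group of granule serine proteases from a single locus of mouse chromosome 14, namely Mcpt8, Mcpt1, Mcpt2, Mcpt4, Mcpt9, Cma1, Ctsg and Gzmb. They were chosen by the Mcpt8 level in PID+ against PID- tumor cells, so the difference of Mcpt8 between these conditions is given as a description and supports nothing. They are 8 of the 21959 genes that had a usable value in both conditions. Proteases of this family are stored in the secretory granules of blood-derived cells and are released when these cells are activated. Chymases and other mast cell proteases act outside the cell on matrix, peptides and receptors, whereas granzymes enter target cells after release from cytotoxic lymphocytes. In the intestine they are known mainly from mucosal mast cells and lymphocytes, not from the epithelium.

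RNA-seq was performed on primary colonic cell lines grown from adenomas of mice. PID is the inhibitory domain of a p21-activated kinase (Pak), and as a peptide it blocks the Group I Paks. PID+ cells came from mice with the Cre transgene CDX2P-NLS-Cre, 1 deleted Apc allele (Δ/+) and the PID transgene at Rosa26, numbered 4, 7 and 26 in the labels, and carry the peptide as a fusion with GST behind a stop cassette that Cre removes. PID- cells came from littermates without the PID transgene, numbered 1, 2 and 3 in the labels, where they are also called normal and untreated. Both groups therefore share the Cre transgene, whose CDX2 promoter directs it to the epithelium of the large and distal small intestine, and the deleted Apc allele. Both were cultured in the same medium with serum, and no treatment other than the transgene separated them. The Cre and Apc parents were C57BL6/J, and mice of both cohorts were killed at the age of 8 months, while no separate age is stated for the donors of the lines. The cells are lines, so that passage and selection in culture add to the effect of the genotype and cannot be told apart from it. The PID transgene itself has no row in the values.

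The values are 1 pooled FPKM (fragments scaled to transcript length and to the number of mapped fragments) per gene and condition, made from 3 sets of reads merged before quantification, with the confidence interval of the authors' software. The deposited file holds no value per line, so no difference below rests on replicates, and p-values were not calculated. Changes are given as log2((FPKM + 1) in PID+ / (FPKM + 1) in PID-), which understates the change of genes with low values, and genes past 3-fold on this scale are said to have risen or fallen. Over all genes, FPKM added up to 545452 (PID-) and 586011 (PID+). Low FPKM values fell on steps from which the reads behind a gene could be estimated, with 92.1% of values in PID- and 91.4% in PID+ cells within 0.1 of a whole read. At equal length, the FPKM of 1 read was larger in PID+ cells by a factor of 1.39, so that low values in PID+ cells rest on fewer reads. The floor was 3 estimated reads over the pooled reads of a condition, after rounding to whole reads. No fold is given where both conditions were at or under it, and 1 to 3 reads give a ratio with its counting interval. For a listed 0, the value of the other condition is set against the floor, without counting error. Intervals from estimated reads cover counting error only, since reads copied by PCR are not independent molecules.

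The epithelial label of the cells was first checked on marker genes. Krt8, Krt18 and Krt19, the keratins of simple epithelium, stood at 1319, 1199 and 2073 FPKM in PID- cells and at 2745, 2843 and 2469 FPKM in PID+ cells. Epcam, a surface protein of epithelial cells, rose from 124 to 401 FPKM, and Cldn7, a tight junction protein, rose from 79.4 to 274 FPKM, and these were the 2 of 12 epithelial markers past 3-fold upward, beside 1.04% of all genes. Downward it was 1 of 12 (Cdx2, below), beside 1.72% of all genes. Both fell short of 3-fold with equal Gapdh FPKM, with log2 changes of 1.06 and 1.15, and Epcam also with equal total FPKM (1.58). Cdh1 (88.0 and 192 FPKM), Krt20, a keratin of intestinal epithelium (73.5 and 158 FPKM) and Cldn3 (173 and 266 FPKM) were abundant in both conditions, given here as PID- and then PID+. Other markers of intestinal epithelium were lower. Cdx2, the transcription factor of intestinal epithelium, fell from 8.04 to 0.542 FPKM, Lgals4 stood at 3.43 and 1.86 FPKM, Vil1 at 0.0614 and 0.175 FPKM, and Cdx1 was listed at 0 in both. General epithelial markers and Krt20 were thus abundant in both conditions, while Vil1 and Cdx1 were near or at 0. Of 10 fibroblast and endothelial markers, 0 rose and 4 fell, beside 1.04% and 1.72% of all genes. Col1a1 fell from 11.9 to 2.32 FPKM, Col1a2 from 11.9 to 0.0654 FPKM, Col3a1 from 6.35 to 0.339 FPKM and Dcn from 2.39 to a listed 0, while the endothelial receptor Kdr stood at 1.01 and 3.33 FPKM. Cdh5, of the same list, stood at 0.00279 FPKM (about 1.0 read) and 0.219 FPKM, a ratio of 78.6 with a counting interval from 13.6 to 3175. With a pseudocount of 0.1, Cdh5 and Kdr passed 3-fold upward (1.64 and 1.62), and Pdgfrb joined those past 3-fold downward (-2.52).

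Mcpt8 was the most abundant of the 8 proteases in both conditions. This basophil protease of mice stood at 9.60 FPKM in PID- cells, with a deposited interval from 0 to 20.4, and at 82.5 FPKM in PID+ cells, with an interval from 30.4 to 135. The intervals lay apart, and the log2 change was 2.98, or 8.59-fold as a plain ratio of FPKM. About 586 reads in PID- and 3690 in PID+ cells lay behind these values, taken over the longest coding transcript of 836 bases. Mcpt8 made up 81.4% of the summed FPKM of the 8 genes in PID- cells and 98.0% in PID+ cells. It passed 65.7% of all genes in PID- and 95.2% in PID+ cells. Among 41 genes that were higher in PID+ cells with intervals apart and reached an FPKM of 1, Mcpt8 ranked 10 by log2 change. Just above it were Ifitm3 (13.1 to 117 FPKM, log2 3.07) and Grb14 (1.24 to 17.7 FPKM, log2 3.06). Just below were Car12 (1.20 to 15.5 FPKM, log2 2.90) and Bmp3 (0.377 to 7.97 FPKM, log2 2.70). These ranks describe the values that chose the gene.

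Mcpt8 was 1 of 8 members at least 3-fold higher in PID+ cells, beside 1.04% of all 21959 genes, and 0 of 8 had fallen by 3-fold, beside 1.72% of all genes. It was also the only member with deposited intervals apart and higher in PID+ cells, a state found in 0.187% of all genes. Since the choice of members used this contrast, nothing is read from these shares. The other 7 members together had 2.19 FPKM in PID- cells and 1.69 FPKM in PID+ cells. In all, 5 members had more than 3 estimated reads in at least 1 condition, and only Mcpt8 and Mcpt1 reached an FPKM of 1.

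The mast cell proteases Mcpt1 and Mcpt4 had lower values in PID+ cells. Mcpt1, the chymase of mucosal mast cells in the mouse gut, stood at 1.98 FPKM in PID- and 0.954 FPKM in PID+ cells, from about 154 and 54.2 reads. This is a log2 change of -0.61, and the deposited intervals of 0 to 4.79 and 0 to 2.82 overlapped. Mcpt4, the chymase of connective tissue mast cells, stood at 0.158 and 0.0363 FPKM, from about 13.7 and 2.3 reads, so that the PID- value was 4.36 times that in PID+ cells, with a counting interval from 1.16 to 45.8. Mcpt2, another mucosal mast cell protease, stood at 0.0270 and 0.0558 FPKM, from about 2.2 and 3.4 reads, at the floor in both once rounded. The order of the conditions for Mcpt1 and Mcpt4 was the same under each scaling tried and opposite to that of Mcpt8.

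Mcpt9 and Cma1 were higher in PID+ cells from a very low base. Mcpt9 stood at 0.0234 FPKM in PID- and 0.475 FPKM in PID+ cells, from about 4.0 and 59.0 reads. Its plain ratio was 20.3, with a counting interval from 7.58 to 77.5, and the log2 change became 2.22 with a pseudocount of 0.1, so that 2 of 8 members passed 3-fold on that scale, beside 2.83% of all genes. The deposited interval in PID+ cells ran from 0 to 1.41 and overlapped that in PID- cells. Cma1, the chymase most like that of humans, was listed at 0 in PID- and at 0.148 FPKM in PID+ cells, from about 9.2 reads. The PID+ value was 4.20 times the floor of 3 reads over the pooled PID- reads. This leaves out the counting error of the 9.2 reads and is no lower bound of the fold. The deposited interval of Cma1 in PID+ cells ran from 0 to 0.446. Of 10 housekeeping genes looked up, 0 were listed at 0, but the lowest, Tbp, stood at 17.9 and 16.8 FPKM. They therefore say nothing about a listed 0 in a gene as low as Cma1.

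The 2 members known from other leukocytes were at or near 0. Ctsg, cathepsin G of neutrophils and mast cells, was listed at 0 in both conditions, where 3 reads would be 0.0391 FPKM in PID- and 0.0535 FPKM in PID+ cells. Gzmb, the granzyme of cytotoxic lymphocytes that cleaves caspases, was listed at 0 in PID- and at 0.0237 FPKM in PID+ cells, from about 2.0 reads. A difference in either gene was not detectable at this depth.

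**Figure D1:**
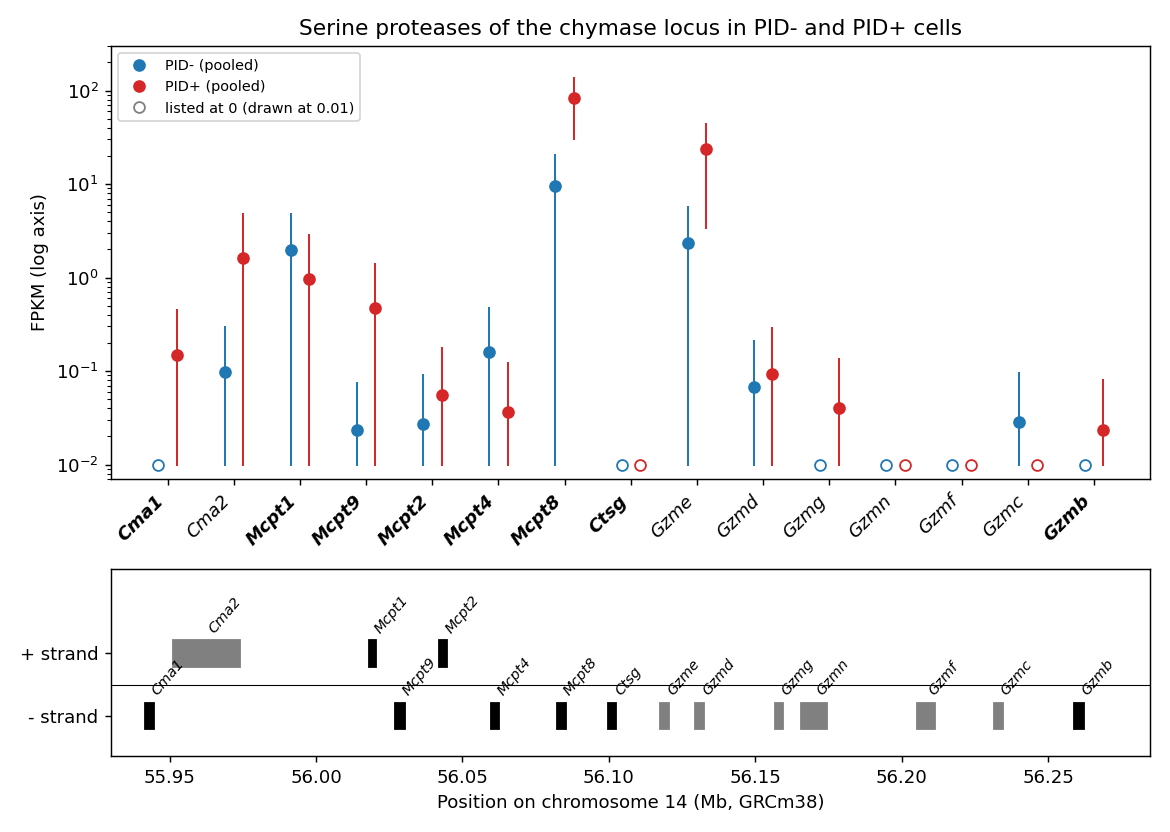
Upper plot, FPKM on a log axis of the 15 serine proteases of the locus in pooled PID- (blue) and PID+ (red) cells, in genomic order, with names of the 8 chosen genes in bold and vertical lines for the deposited intervals, which are drawn down to 0.01 where the lower bound is 0. Lower plot, the genes to scale on chromosome 14 by strand, the 8 chosen genes in black.

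The genes were listed as a cluster, so that their common place is part of the choice. The 8 members lie within 321 kb of chromosome 14 (GRCm38), together with 7 further serine protease genes, and each of the 8 has 5 exons in its longest coding transcript. Mcpt8 (ENSMUSG00000022157) lies at chr14:56082166-56085273 on the minus strand. Its neighbours are Mcpt4, 19.9 kb away on one side, and Ctsg, 14.6 kb away on the other. Beyond Ctsg follows Gzme, 32.4 kb from Mcpt8, a granzyme known from activated lymphocytes and from the placenta. Gzme rose from 2.33 FPKM (interval 0 to 5.65) in PID- to 23.6 FPKM (interval 3.39 to 43.8) in PID+ cells, which is 2.88 in log2. About 160 and 1184 reads lay behind these values, and the intervals overlapped. Ctsg between them was listed at 0 in both conditions. Mcpt8 and Gzme were thus not direct neighbours.

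Of the 7 further proteases, Gzme was the only one past 3-fold, beside 1.04% of all genes upward. Cma2, a chymase gene between Cma1 and Mcpt1, stood at 0.0976 FPKM in PID- and 1.61 FPKM in PID+ cells, from about 7.0 and 84.3 reads. Its plain ratio was 16.5, with a counting interval from 7.73 to 42.6, its log2 change was 1.25, and it passed 3-fold with a pseudocount of 0.1 (3.11). Gzmd, next to Gzme, stood at 0.0682 and 0.0938 FPKM, from about 5.0 reads in each condition. Gzmg (0 and 0.0404 FPKM) and Gzmc (0.0284 FPKM and 0) had at most 3 reads, and Gzmf and Gzmn were listed at 0 in both. Over the 15 proteases of the locus, 4 reached an FPKM of 1 in a condition, namely Mcpt8, Gzme, Cma2 and Mcpt1.

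Levels of the genes around the proteases ranged from a listed 0 to 131 FPKM (Nedd8 in PID+ cells). Within 500 kb of the members, 41 other genes had values, and 27 of them reached an FPKM of 1. Of these 27, 23 were higher and 4 lower in PID+ cells, and their log2 changes had a median of 0.54. With a mean FPKM of 5 or more, the median was 0.25 over 316 genes of chromosome 14 and 0.00 over the 9341 genes of all chromosomes. That filter differs from the one that gave the 27 genes. The share of all genes with higher values is not given here, so no direction of the neighbourhood is read from these signs. With the median of the chromosome subtracted, 19 of the 27 were higher and 8 lower, with a median of 0.28. With equal Gapdh FPKM the split was 11 higher and 16 lower with a median of -0.02, but that scaling moves the median of the 9341 genes to -0.58, so that the flip belongs to the scaling. Chromosome 14 ranked 3 of 20 chromosomes by this median, after chromosomes 6 (0.34) and 3 (0.25). Tgm1, which crosslinks the envelope of keratinised cells, rose from 13.96 to 48.8 FPKM, but fell short of 3-fold with equal Gapdh FPKM and with the median of the chromosome subtracted. Pck2, the mitochondrial enzyme that makes phosphoenolpyruvate, fell from 42.0 to 11.02 FPKM. Ripk3, a kinase of necroptosis 153 kb before Cma1, stood at 7.47 and 22.5 FPKM, Rabggta at 14.3 and 32.1 FPKM, Tinf2 at 9.22 and 20.2 FPKM, and Sdr39u1, the nearest gene before Cma1, at 15.1 and 30.5 FPKM. The other higher genes were Dhrs4, Psme1, Psme2, Rnf31, Irf9, Ipo4, Tm9sf1, Mdp1, Nedd8, Gmpr2, Dhrs1, Nop9, Cideb, Khnyn, Cenpj, Parp4, Mphosph8 and Pspc1, with log2 changes between 0.15 and 0.75. Dcaf11, Emc9 and Nfatc4 had log2 changes of -0.02, -0.05 and -0.32. The other 14, Carmil3, Cpne6, Nrl, A730061H03Rik, Fitm1, Rec8, Tssk4, Ltb4r2, Ltb4r1, Adcy4, Nynrin, Cbln3, Atp12a and Rnf17, were under 1 FPKM in both conditions.

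Because the genes are copies of each other, the sequence they share sets how well reads can be assigned. No 50-base window of the Mcpt8 transcript occurred in a transcript of another gene, on either strand, and its coding sequence of 741 bases was at most 63.6% identical to that of another protease of the locus, Mcpt1. Mcpt1, Mcpt2, Ctsg and Gzmb likewise shared no window of 50 bases. The other 3 members did. Mcpt9 shared 18.8% of its windows with other genes, and its coding sequence was 98.1% identical to that of Cma2, which shared 46.5% of its windows. Reads from the windows that Mcpt9 and Cma2 share cannot be told apart. Mcpt4 shared 5.48% of its windows, with Cma2 and Mcpt9, and Cma1 shared 5.38%, with the annotated gene Gm48934. Gzme shared 20.6% of its windows with other granzymes, and its coding sequence was 94.8% identical to that of Gzmd. In spite of this likeness, Gzme had about 1184 reads and Gzmd about 5.0 in PID+ cells.

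The promoters of Mcpt8 and Gzme are printed because these genes rose together while Ctsg between them was listed at 0. They come from RefSeq (GRCm38.p6), which had an entry for 13 of the 15 genes and 7 of the 8 members, Mcpt2 being without one. Each runs from 250 bases before the RefSeq gene start to 50 bases after it, at chr14:56085148-56085447 for Mcpt8 and chr14:56120576-56120875 for Gzme, both on the minus strand, and is written 5′ to 3′. The RefSeq start of Mcpt8 lies inside the Gencode span given above, and so does the E-box marked below, whereas the starts of Gzme are the same. Capitals mark the letters TGTGGT, bound by RUNX factors, or their reverse complement, and the E-box CACNTG, where N is any base.
Mcpt8: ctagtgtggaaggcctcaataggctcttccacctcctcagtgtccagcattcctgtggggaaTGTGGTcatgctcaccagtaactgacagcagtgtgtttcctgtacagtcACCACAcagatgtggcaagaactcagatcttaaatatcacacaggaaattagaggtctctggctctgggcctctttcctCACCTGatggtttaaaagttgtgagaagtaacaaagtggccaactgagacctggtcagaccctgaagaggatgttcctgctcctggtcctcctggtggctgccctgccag
Gzme: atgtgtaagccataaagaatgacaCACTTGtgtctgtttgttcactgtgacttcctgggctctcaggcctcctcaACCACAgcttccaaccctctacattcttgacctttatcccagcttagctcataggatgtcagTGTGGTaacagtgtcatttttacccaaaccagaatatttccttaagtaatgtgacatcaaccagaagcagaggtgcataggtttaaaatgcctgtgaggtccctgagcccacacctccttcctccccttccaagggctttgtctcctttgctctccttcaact
Both promoters held the RUNX letters 2 times and the E-box letters 1 time, and the matches did not overlap. On either strand, TGTGGT occurred in 16.8% of 32851 promoters of this length and CACNTG in 44.9%. TGTGGT was found in 11 of the 13 promoters of the locus, among them those of Ctsg and of granzymes that were near 0, so that its presence did not separate the genes by level. CACNTG was found in 5 of the 13, namely also in Gzmc, Gzmd and Ctsg, which holds it 2 times, so that it did not separate them either. None of the 13 held AGATAA, which is only 1 of the forms that GATA factors bind and occurred in 11.2% of all promoters. Other forms were not counted, and some are present, such as TGATAA in Mcpt1 and Mcpt4. The TATA box TATAAA occurred in 4 of the 13, among them Mcpt1 and Mcpt4, but not in Mcpt8 or Gzme, against 13.6% of all promoters. The AP-1 letters TGANTCA were found only in Gzmb, and occurred in 7.81% of all promoters, and the STAT letters TTCNNNGAA were found in Ctsg and Gzmb, and occurred in 8.30% of all promoters. These matches describe the sequence and are not binding sites. The longest stretch shared by the Mcpt8 and Gzme promoters was 9 bases, whereas Gzme and Gzmd shared 45 bases and were identical at 93.7% of positions when aligned. Mcpt1 and Mcpt4 shared 53 bases and were identical at 83.0% of positions.

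Other genes known from the cells that normally make Mcpt8 are given by marker lists. In bulk RNA, more cells of a type and more RNA per cell cannot be told apart. Of 21 mast cell and basophil markers, 0 were at least 3-fold higher in PID+ cells, 1 had fallen, and 8 were listed at 0 in both conditions. The counts of higher and fallen markers stand beside 1.04% and 1.72% of all genes, from which so short a list cannot be told apart. Of all 21959 genes, 4233 were listed at 0 in both conditions. The 8 markers at 0 include defining ones, namely Fcer1a and Ms4a2 (the alpha and beta chains of the high affinity IgE receptor), carboxypeptidase A3 (Cpa3), the tryptases Tpsab1 and Tpsb2, the basophil protease Prss34, Mrgprb1 and Rgs13. The list summed to 70.8 FPKM in PID- cells and to 68.1 FPKM in PID+ cells, most of it from Itga2 (49.9 and 59.0 FPKM), a collagen receptor that epithelial cells also express. Cd200r3, a receptor of basophils and mast cells, fell from 8.56 to 0.219 FPKM, in the direction opposite to Mcpt8. Il3ra stood at 7.05 and 4.14 FPKM, Mrgprb2 at 2.06 and 1.75 FPKM, Slc18a2 at 1.96 and 1.54 FPKM, and Kit, the receptor mast cells depend on, at 0.409 and 0.601 FPKM. Of the 21 markers, 4 were higher and 9 lower in PID+ cells. Il1rl1, the receptor of Il33, stood at 0.0658 and 0.499 FPKM, from about 31.8 and 174 reads. This is a ratio of 7.58 with a counting interval from 5.15 to 11.4, in the same direction as Mcpt8. Il1rl1 was the one marker of the list past 3-fold upward with a pseudocount of 0.1. Hdc, which makes histamine, went the other way, from 0.284 to 0.0134 FPKM or about 59.2 and 2.0 reads, an inverse ratio of 21.3 with a counting interval from 5.64 to 180. With a pseudocount of 0.1, Hdc and Cd200r3 were past 3-fold downward (-1.76 and -4.76).

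General leukocyte markers were mostly under 1 FPKM, with 3 of 18 reaching it in a condition. Of the 18, 0 were at least 3-fold higher and 1 had fallen, beside 1.04% and 1.72% of all genes, and they summed to 10.9 FPKM in PID- cells and to 6.21 FPKM in PID+ cells. With a pseudocount of 1, a marker cannot be called higher unless it passes 2 FPKM, so that 0 says little here. The count was also 0 with a pseudocount of 0.1, where Cd53 and Cd48 were past 3-fold downward (-3.47 and -1.87). The part of other cell types in the Mcpt8 result was not tested. The most abundant in PID- cells, the tetraspanin Cd53, fell from 7.44 to 0.582 FPKM. Without it the sums were 3.48 and 5.63 FPKM, mostly from the actin bundler Lcp1 (1.11 and 2.84 FPKM) and the integrin Itgb2 (0.951 and 1.72 FPKM). Ptprc, which encodes CD45, stood at 0.00811 and 0.0264 FPKM, from about 3.7 and 8.8 reads, a ratio of 3.26 with a counting interval from 0.871 to 13.9. Rac2, a GTPase of blood cells, stood at 0.0112 and 0.0718 FPKM, a ratio of 6.43 with a counting interval from 1.81 to 35.1. Fcer1g, the gamma chain of the IgE receptor and of other Fc receptors, stood at 0.252 and 0.149 FPKM, from about 11.7 and 5.1 reads. Cd48 stood at 0.340 and 0.0198 FPKM, an inverse ratio of 17.1 with a counting interval from 3.86 to 940, and Cd37 at 0.261 and 0.106 FPKM, an inverse ratio of 2.47 with an interval from 1.41 to 4.51. Single markers thus differed in direction, and 8 of the 18 were higher and 10 lower. Tyrobp (0.0281 FPKM and 0), Laptm5 (0.0192 FPKM and 0) and Spi1 (0.0115 and 0.00791 FPKM) were also near 0.

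**Figure D2:**
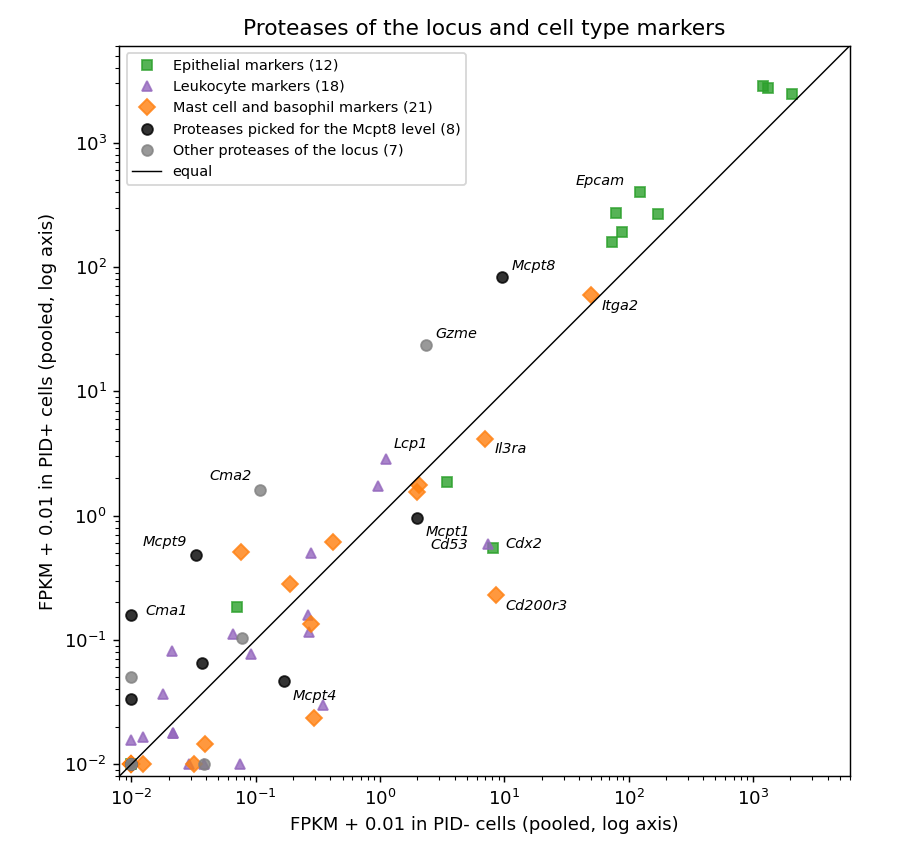
FPKM + 0.01 in pooled PID- cells (horizontal) against pooled PID+ cells (vertical), both on log axes, for the 8 chosen proteases, 7 other proteases of the locus, 21 mast cell and basophil markers, 18 leukocyte markers and 12 epithelial markers, with a line of equal values. Mcpt8 and Gzme stand above the line, Cd53 and Cd200r3 below it, and most markers of blood cells lie under 1 FPKM.

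Markers of single leukocyte types differed between lists. Of all 21959 genes, 4233 were listed at 0 in both conditions, for comparison with the counts at 0 below. Of 15 NK and T cell markers, 9 were listed at 0 in both conditions, among them Prf1, Nkg7, Ncr1, Cd3e and Gzma, 3 were higher and 3 lower, and the sum was 1.08 in PID- and 3.68 FPKM in PID+ cells. The lower ones, Klrb1c (0.0297 and 0.00600 FPKM), Cd8a (0.0146 and 0.00501 FPKM) and Gzmk (0.0126 FPKM and 0), rest on few reads. Eomes stood at 0.993 and 2.15 FPKM and the chemokine Ccl5 at 0.0307 and 1.52 FPKM, the former value of Ccl5 from about 1.0 read, so that its ratio of 49.3 has a counting interval from 8.40 to 2025. Of 12 neutrophil markers, 5 were listed at 0 in both, among them Elane and Camp, 6 were higher and 1 was lower in PID+ cells. The sum was 97.7 FPKM in PID- and 165 FPKM in PID+ cells. Ltf (lactoferrin), which glandular epithelium also makes, was the most abundant in PID- cells at 82.0 FPKM, against 55.0 FPKM in PID+ cells. Ly6g, a surface protein used to sort neutrophils, rose from 15.5 FPKM (interval 0 to 33.2) to 109 FPKM (interval 30.3 to 188), the only marker of the 12 past 3-fold, beside 1.04% of all genes, with intervals that overlapped. S100a9, a calcium-binding protein of neutrophils, stood at 0.0652 and 0.707 FPKM, a ratio of 10.9 with a counting interval from 2.61 to 99.4. It passed 3-fold with a pseudocount of 0.1 (2.29). S100a8 (0.142 and 0.332 FPKM), Csf3r (0.0285 and 0.0295 FPKM), Prtn3 (0 and 0.109 FPKM) and Mpo (0 and 0.0321 FPKM) were also higher, from few reads. The share of all genes with higher values is not given here, so no direction of the neutrophil list is read from these signs. Of 10 macrophage markers, C1qa, C1qb and C1qc were listed at 0 in both, 5 were higher and 2 lower in PID+ cells. The sum of 46.0 and 51.7 FPKM came mostly from Cd14 (28.6 and 29.1 FPKM) and Cd68 (16.8 and 21.8 FPKM). Mrc1 stood at 0.258 and 0.607 FPKM, a ratio of 2.35 with a counting interval from 1.88 to 2.95. Adgre1 (0.0247 and 0.0669 FPKM) and Aif1 (0.0665 and 0.105 FPKM) were also higher. The lower ones were Csf1r (0.233 and 0.0595 FPKM, inverse ratio 3.92, counting interval 2.38 to 6.97) and Lyz2 (0.0393 FPKM and 0). The 4 B cell markers summed to 0.0550 and 0.166 FPKM. Of 8 platelet markers, 1 rose, beside 1.04% of all genes, and had intervals apart, beside 0.187%. This was the chemokine Ppbp, from 231 to 2321 FPKM. Among the 8 markers, 3 were higher and 3 lower in PID+ cells. Pf4 stood at 0.372 and 0.947 FPKM, a ratio of 2.55 with a counting interval from 1.296 to 5.335. Gp1bb, a chain of the platelet receptor for von Willebrand factor, stood at 0.483 and 0.0678 FPKM, an inverse ratio of 7.13 with a counting interval from 3.51 to 15.8. Itga2b stood at 2.08 and 1.19 FPKM, and Gp6 and Treml1 were listed at 0 in both.

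Granule proteases at other loci were mostly listed at 0. Of 11, 7 were at 0 in both conditions, beside 4233 of all 21959 genes. Of the 11, 0 were past 3-fold, against 1.04% of all genes upward and 1.72% downward. Only Prss57, a neutrophil serine protease, exceeded 1 FPKM, at 5.45 and 8.75 FPKM. Gzmm stood at 0.540 and 0.565 FPKM.

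Of 11 genes that activate, store or deliver granule proteases, 9 reached 1 FPKM in a condition, and 0 were past 3-fold in either direction (1.04% and 1.72% of all genes). Ctsc and Ctsh, which trim the proforms of these proteases to active enzymes, stood at 49.5 and 91.3 FPKM in PID- cells and at 44.8 and 90.9 FPKM in PID+ cells. Srgn, the core protein of the proteoglycan that holds the proteases in granules, was near 0 at 0.0565 and 0.0287 FPKM, and perforin (Prf1) was listed at 0. Ndst2, which sulfates heparin, stood at 5.54 and 6.75 FPKM. Of the genes of granule release, Vamp8 stood at 58.7 and 123 FPKM, Stxbp2 at 114 and 100 FPKM, Unc13d at 21.8 and 36.2 FPKM, Stx11 at 7.87 and 5.79 FPKM, and Lyst at 6.59 and 3.63 FPKM. Rab27a, which docks granules at the membrane, stood at 0.228 and 2.55 FPKM, with a log2 change of 1.53 that lay just inside 3-fold and passed it with a pseudocount of 0.1 (3.02) and with the median of its chromosome subtracted (1.62).

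Of 10 inhibitors of granule proteases, 7 had lower values in PID+ cells, 1 was higher and 2 were listed at 0 in both. Among the 7 are Serpina3g (about 1.0 read and 0) and Serpina3n (about 5.0 and 1.0 reads). The share of all genes with lower values is not given here, so no direction of the list is read from these signs. Of the 10, 1 rose and 2 fell, beside 1.04% and 1.72% of all genes. Slpi, a secreted inhibitor of leukocyte elastase, cathepsin G and chymase, rose from 13.3 to 47.2 FPKM, with a log2 change of 1.75 that was 1.15 with equal Gapdh FPKM. Serpinb6b fell from 84.0 to 19.3 FPKM with intervals apart, and Serpinb1a, an inhibitor of neutrophil proteases, fell from 9.18 to 0.481 FPKM. Serpinb6a, the most abundant, stood at 483 and 290 FPKM, Serpinb9, the inhibitor of granzyme B, at 41.9 and 21.5 FPKM, and Serpinb9b at 24.1 and 18.7 FPKM. Inhibitor RNA therefore exceeded that of the proteases per length, at 655 FPKM in PID- cells and 398 FPKM in PID+ cells in sum, against 11.8 and 84.2 FPKM of the 8 members.

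Of 4 receptors that such proteases can cut, 0 rose and 1 fell, beside 1.04% and 1.72% of all genes. F2r (PAR1) fell from 69.6 to 22.4 FPKM, with a log2 change of -1.59 that lay at the threshold and fell short of it with equal upper quartiles (-1.57) and with the median of its chromosome subtracted (-1.40). F2rl1 (PAR2), the receptor of tryptase, stood at 9.84 and 15.7 FPKM, and the other 2 were under 1 FPKM. Of 9 ligands that act on mast cells or basophils, 0 were at least 3-fold higher and 1 fell, where the shares of all genes were again 1.04% and 1.72%. Il33, an alarmin of epithelial cells, stood at 92.8 and 102 FPKM, Kitl, the ligand of Kit, at 16.5 and 21.3 FPKM, and Tslp at 0.751 and 1.09 FPKM. Csf2 fell from 2.97 to 0.309 FPKM, and Il3, a growth factor of basophils, was at 0 and 0.0329 FPKM.

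The genes whose levels were most like those of Mcpt8 were found by distance over log2(FPKM + 1) in the 2 conditions, among the 11785 genes that reached 1 FPKM in either. They were Scnn1a, a subunit of the epithelial sodium channel (9.47 and 67.1 FPKM, distance 0.295), Ramp3, a partner of the calcitonin receptor family (7.69 and 91.5 FPKM, distance 0.323), Ceacam1, an adhesion protein of epithelial cells (10.4 and 66.3 FPKM, distance 0.328), Gcnt3, a mucin glycosyltransferase (10.2 and 61.6 FPKM, distance 0.424), and Sdcbp2 (9.17 and 59.2 FPKM, distance 0.476). None of these lies on chromosome 14. With 2 pooled values a gene, likeness rests on 2 points.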

How the data were processed

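RNA-seq libraries of 6 samples, 3 PID- and 3 PID+, were grouped by the treatment in their labels. Per the paper's methods, the authors removed adapters with CutAdapt, aligned reads with TopHat and Bowtie2 to GRCm38.p3, annotated for protein coding genes, pooled the reads of each condition, and deposited the pooled FPKM of CuffDiff with its interval bounds. The methods call these sets sequencing runs, whereas the labels name mice, and the PID- numbers differ between them. Rows called treated were taken as PID+. Of 21966 genes, 7 with a status other than OK were left out, and 232 had no symbol. The interval bounds deposited by the authors (another measure than the FPKM) cover the error model of that software only, and 28 of 43932 rows have an upper bound below the FPKM.

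Fold changes used a pseudocount of 1. Reads were estimated from genes with 1 transcript of 600 to 4000 bases (Gencode M21, GRCm38), by searching the length correction and the value of a read that put most values on whole reads. Estimates for genes with several transcripts used the longest coding one and are approximate. Ratio intervals were exact (conditional binomial, 95%). Coding sequences were aligned globally, and motifs were searched on both strands. The calculations were tested on simulated data. The proteases and gene lists were chosen with earlier results of these data known. The text names the 8 genes, all genes within 500 kb, in each list the detected genes (FPKM of at least 1) and those past 3-fold, the 5 genes most like Mcpt8 and its 2 neighbours in rank on each side. Any other gene in the text was added with its value known. The result was also computed with a pseudocount of 0.1, with FPKM set to equal Gapdh, equal total or equal upper quartile, the chromosome median subtracted, a mean FPKM of at least 1, intervals apart, and windows of 36 bases. Identity between proteins was not analysed here. Sequences were handled with Biopython 1.88, values with pandas 2.3.3, numpy 2.4.6 and scipy 1.17.1, and figures with matplotlib 3.10.9, in Python 3.11.15.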

Additional observations from a re-analysis of the deposited data

How the results depend on the processing

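The counts and the Mcpt8 change were recomputed under 41 alternatives in all. Of these, 34 gave a count within 1.5 times the reported one or a Mcpt8 change within its counting error. Many of the 34 are counts of 0 that stayed 0, and a filter on mean FPKM can only remove calls. The number 34 is therefore no measure of how firm the results are. The log2 change of Mcpt8 was 2.36 with equal Gapdh FPKM and 2.72 with the median of the chromosome subtracted, and above 3-fold under every alternative listed. Equal Gapdh FPKM moved the median log2 change of the 9341 genes at a mean of 5 FPKM or more to -0.58. With a pseudocount of 0.1, 2 of 8 members were at least 3-fold higher, through Mcpt9, and 1 of 21 mast cell and basophil markers. Of the 56 genes of the locus, 5 were at least 3-fold higher, against 3 with a pseudocount of 1, since low values count for more at 0.1. The share of all genes was 2.83% with a pseudocount of 0.1 and 1.04% with 1. The locus counts include Mcpt8, which the choice used, and the 5 also include the member Mcpt9, so nothing is read from them. With deposited intervals apart as the call, 1 of the 56 genes of the locus was higher, beside 0.187% of all genes, and this was Mcpt8 itself. With windows of 36 bases, members that share sequence with another gene were 6 against 3. Leaving out each replicate was not possible because the values are pooled. No paired analysis was possible because the result comes from no test. Depth limits the low proteases, and the floor of 3 reads among the 8 lay between 0.0175 FPKM (Mcpt9 in PID- cells) and 0.0671 FPKM (Mcpt8 in PID+ cells).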
